A study of Homo sapiens with 44 samples.

Results

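CCL2, CCL5, CCL7, CCL8, CCL13 and CCL20 are 6 CC chemokine genes, small secreted proteins that draw monocytes and lymphocytes out of blood and through tissue. They were taken as the rows with these symbols in the deposited count table, which makes them 6 of 40663 symbols listed. CCL2, CCL7, CCL8 and CCL20 were 4 of the 9513 genes with enough counts to enter the test, whereas CCL13 and CCL5 had too few and are described by their counts. They were measured by bulk RNA-seq in Ccd-18Co cells, a human colon fibroblast line used up to passage 20. The 44 libraries form 11 groups of 4 replicates. Serum was withdrawn for 72 h, after which the cells received 1 cytokine or none (unstimulated) for 24 h. TNF, IL-17A, IFNα, IFNγ, OSM, IL-6, IL-13, IL-22 and TGF-β1 were given at 10 ng/ml, and IL-1β at 0.1 ng/ml by the labels and methods (a figure legend of the study gives 0.01 ng/ml). A single line grown without leukocytes or epithelium limits these groups as a model of the gut wall. The labels do not say whether replicates were separate cultures, so p-values measure only the spread between these libraries.

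CC chemokines bind G-protein-coupled receptors on leukocytes, and most are induced at the level of transcription. CCL2, CCL7, CCL8 and CCL13 are the monocyte chemoattractant proteins, which share the receptor CCR2 and to differing extents use other receptors. CCL5 acts on T cells and monocytes. CCL20 is the chemokine ligand of CCR6, carried by B cells, dendritic cell precursors and IL-17-producing T cells. In the gut, stromal cells and epithelium are both known sources of these proteins during inflammation.

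Total counts per library were 742173 to 2213424. At these depths 3 counts, taken as the limit of detection in 1 library, correspond to 1.39 to 3.85 CPM (read counts scaled to a common normalized library size). All limits and counting intervals cover counting error only. All 9 fibroblast markers, collagens and DCN among them, were tested and summed to 17351 to 53227 CPM. Of 7 leukocyte markers only CD68 was tested, CD3E and ITGAM were at 0 in every library, and PTPRC, the pan-leukocyte marker, reached 1.60 CPM at most. The endothelial markers summed to 2.65 CPM at most. Of 4 epithelial markers only VIL1 was tested, with a median of 8.45 CPM and 26.6 CPM at most. KRT20, CDH1 and EPCAM reached 1.71, 1.56 and 0.888 CPM. Within a group, fewer producing cells and less RNA per cell cannot be told apart in bulk RNA.

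CCL2, CCL7, CCL8 and CCL13 are neighbours in the genome. In GENCODE release 44 on GRCh38, CCL2 (chr17:34255274-34257208), CCL7 (chr17:34270221-34272242), CCL8 (chr17:34319435-34321402) and CCL13 (chr17:34356480-34358610) lie on the plus strand in a cluster of 107960 bases. That cluster holds 6 genes, the other 2 being CCL11 and CCL1. CCL5 (chr17:35871491-35880793, minus strand) lies 1508257 bases beyond it, and CCL20 (chr2:227805739-227817564, plus strand) is on another chromosome. CCL2, CCL7, CCL8 and CCL13 have 3 exons in their canonical transcript, and CCL5 and CCL20 have 4. None of the 31-base words of the canonical CCL2, CCL7, CCL8, CCL13 or CCL20 transcript occurs in a transcript of another gene, so reads of these close relatives could be told apart. In CCL5, 343 of 1269 words (27%) occur in transcripts of other genes, which makes its few counts uncertain.

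Promoters are shown because members of the cluster that lie close together differed in which cytokine raised them. RefSeq (GRCh38.p14) gave the 250 bases before the start of CCL7 (chr17:34269971-34270220), CCL8 (chr17:34319185-34319434), CCL13 (chr17:34356230-34356479) and CCL20 (chr2:227813592-227813841), all on the plus strand. The CCL20 window precedes the start of its canonical transcript (base 227813842), which lies inside the span given above because another transcript begins upstream. Capitals mark matches, in the order in which they stand, to GAS (TTCNNNGAA, an interferon-response element), AP-1 (TGANTCA), the NF-κB motif and the TATA box (TATAAA).
CCL7: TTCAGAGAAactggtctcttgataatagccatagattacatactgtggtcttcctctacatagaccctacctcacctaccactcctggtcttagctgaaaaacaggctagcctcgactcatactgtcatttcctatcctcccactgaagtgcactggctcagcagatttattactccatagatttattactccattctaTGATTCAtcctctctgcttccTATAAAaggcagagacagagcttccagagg
CCL8: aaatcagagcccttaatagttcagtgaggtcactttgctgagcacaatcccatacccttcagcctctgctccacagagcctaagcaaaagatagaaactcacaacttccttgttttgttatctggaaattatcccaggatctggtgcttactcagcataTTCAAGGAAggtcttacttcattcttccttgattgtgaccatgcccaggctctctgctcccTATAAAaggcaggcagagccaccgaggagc
CCL13: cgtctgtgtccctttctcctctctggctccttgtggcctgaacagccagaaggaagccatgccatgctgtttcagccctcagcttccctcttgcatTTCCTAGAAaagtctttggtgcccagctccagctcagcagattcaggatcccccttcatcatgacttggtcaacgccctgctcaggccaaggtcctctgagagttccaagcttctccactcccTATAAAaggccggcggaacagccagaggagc
CCL20: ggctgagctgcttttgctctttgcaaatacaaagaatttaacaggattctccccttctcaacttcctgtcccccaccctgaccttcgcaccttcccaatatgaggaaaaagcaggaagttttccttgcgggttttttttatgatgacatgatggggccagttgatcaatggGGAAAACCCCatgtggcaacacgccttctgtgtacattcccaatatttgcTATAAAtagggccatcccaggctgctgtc
The promoter set used held no entry for CCL2 or CCL5, so theirs were not searched. The 3 printed promoters of the cluster each held 1 GAS match, 250 to 242 bases before the start in CCL7, 91 to 83 in CCL8 and 154 to 146 in CCL13. CCL7 also held an AP-1 match 51 to 45 bases before the start. The CCL20 window held an NF-κB match on the opposite strand, 79 to 70 bases before the start, and no GAS match. All 4 held TATAAA 24 to 31 bases before the start, and none held ISRE (GAAANNGAAA). Of 35116 promoters of the same length, 6.57% held GAS, 6.57% AP-1, 9.96% NF-κB and 3.02% ISRE on either strand, and 6.8% held TATAAA on the coding strand. No 2 of the printed matches overlap. These are matches of letters, and binding was not measured here.

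The 6 genes fell into different patterns over the cytokines. CCL2 and CCL7 were upregulated by IL-1β, TNF, IFNα and IFNγ. CCL8 was upregulated by both interferons and not called with IL-1β or TNF, whereas CCL20 was upregulated by IL-1β and TNF and stayed at 0 to 3 counts in every interferon library. Genes counted as called had a log2 fold change beyond 1.5 in either direction and an adjusted p under 0.05. Of the 4 members tested, 3 were called with IL-1β (2.78% of all 9513 genes), 3 with TNF (4.19% of all genes), 3 with IFNα (3.98%) and 3 with IFNγ (3.53%), and every one of these was higher than in unstimulated cells. With IL-17A, 1 of 4 was called (0.452% of all genes).

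**Figure D1:**
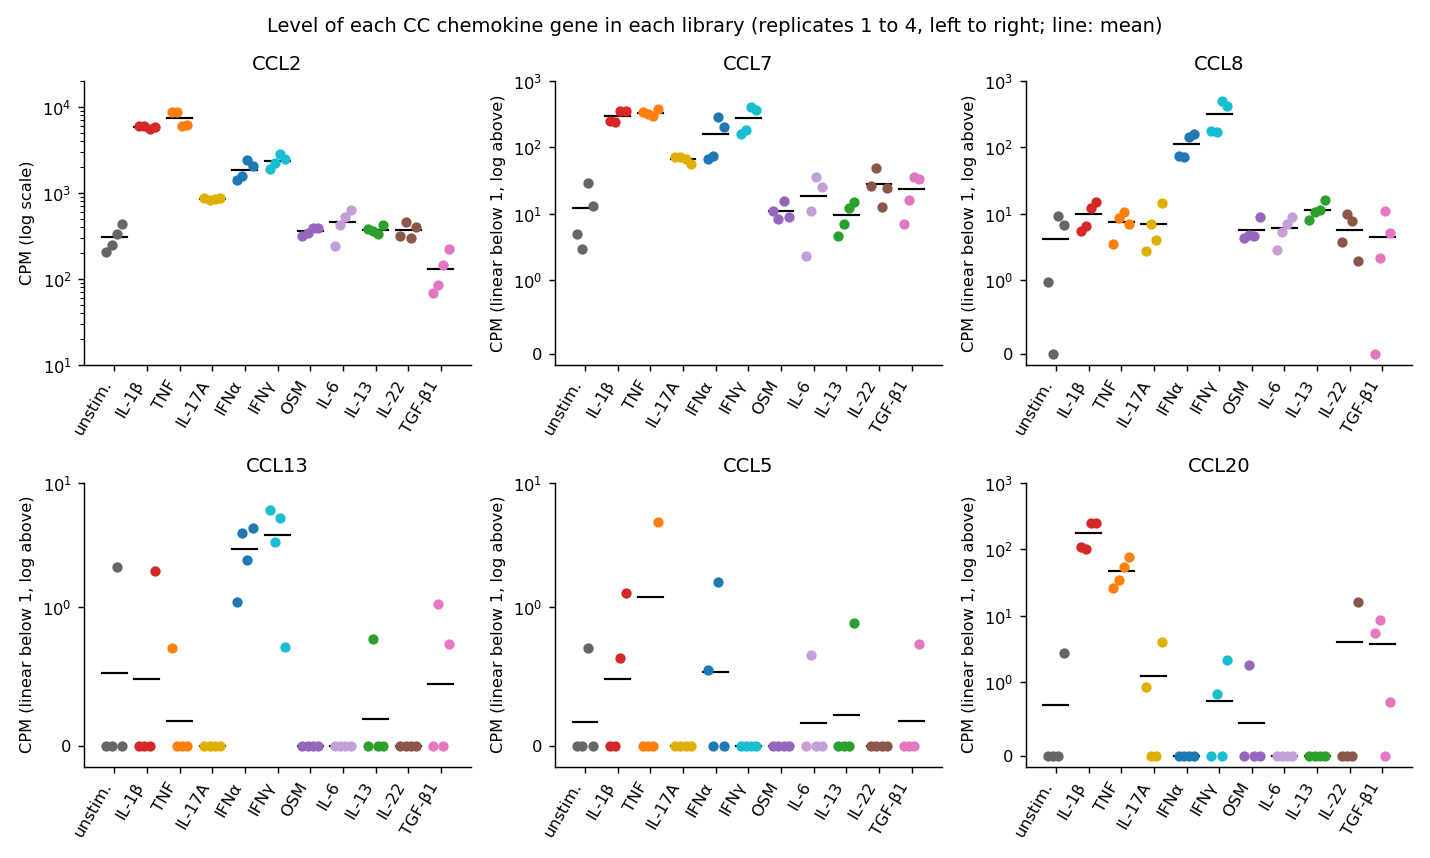
CPM of each gene in the 44 libraries (y axis; logarithmic for CCL2, otherwise linear below 1 and logarithmic above), by group on the x axis, with 1 point per replicate and a line at the mean of 4. CCL2 ran from 68.6 to 8779 CPM, CCL8 stood apart with IFNα and IFNγ, CCL20 with IL-1β and TNF, and CCL13 and CCL5 reached 6.03 and 4.82 CPM at most.

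CCL2, the prototype monocyte attractant, was the member with the highest level per length in every group. It measured 204, 248, 331 and 439 CPM in the 4 unstimulated libraries, with a mean of 305 ± 103 (SD, n = 4). TNF raised it to 8779, 8707, 5966 and 6162 CPM, and IL-1β to 5966, 6042, 5580 and 5908 CPM. All 8 lay far above the highest unstimulated library, and the IL-1β replicates were the tightest of the 4 inducers, with a coefficient of variation of 3.47% against 20.9% for TNF. The log2 fold change was 4.60 (SE 0.28, adjusted p = 2.58e-16) for TNF and 4.27 (SE 0.28, adjusted p = 9.89e-16) for IL-1β, which are 24.3-fold and 19.3-fold. The direct difference between TNF and IL-1β was 0.33 on the log2 scale (95% interval -0.15 to 0.82, adjusted p = 0.626), and the ranges of the 2 groups overlapped.

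The interferons raised CCL2 less. IFNα libraries measured 1396, 1555, 2390 and 2041 CPM, and IFNγ libraries 1921, 2245, 2861 and 2473 CPM. All 8 lay above every unstimulated library and below every IL-1β and TNF library. The log2 fold changes were 2.60 (SE 0.26, adjusted p = 9.32e-11) for IFNα and 2.96 (SE 0.26, adjusted p = 4.69e-12) for IFNγ, and the 2 interferons differed by 0.36 (95% interval -0.12 to 0.85, adjusted p = 0.432). TNF exceeded IFNγ by 1.64 on the log2 scale (SE 0.25, adjusted p = 3.29e-06), which was called.

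IL-17A gave 867, 821, 845 and 864 CPM of CCL2, all above the unstimulated range. Its log2 fold change of 1.48 (SE 0.25, adjusted p = 0.000463) passed the p threshold and stopped just short of the fold threshold, so it was not called. It was called at 1.54, 1.70 or 1.51 when unstimulated replicate 3, unstimulated replicate 4 or IL-17A replicate 2 was left out. With TGF-β1 the libraries measured 68.6, 85.1, 144 and 222 CPM, of which 3 lay below every unstimulated library and the fourth within their range. The log2 fold change was -1.22 (SE 0.25, adjusted p = 0.00146) and was not called. Without TGF-β1 replicate 4, the highest of that group, it was -1.59 (adjusted p = 3.42e-05) and was called. Without unstimulated replicate 4 it was -0.995. Under the alternative ways of processing it ran from -1.24 to -1.19. The highest adjusted p among them was 0.0677, which missed the p threshold, so the fall did not pass it under every alternative.

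CCL7, which attracts monocytes and eosinophils among others, followed CCL2 at far lower levels. It was low and uneven in unstimulated cells, with 4.90, 2.92, 28.8 and 13.0 CPM (10, 4, 41 and 19 counts). IL-1β libraries measured 249, 239, 350 and 351 CPM, and TNF libraries 343, 318, 299 and 381 CPM. Every one of these lay above all unstimulated libraries, and the 2 groups overlapped each other. The log2 fold changes were 4.61 (SE 0.53, adjusted p = 1.18e-08) for IL-1β and 4.78 (SE 0.53, adjusted p = 5.11e-09) for TNF, with a direct difference of 0.17 (95% interval -0.67 to 1.02, adjusted p = 0.921).

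With interferon, CCL7 varied widely between replicates. IFNα gave 67.2, 74.4, 286 and 202 CPM, and IFNγ 160, 183, 408 and 365 CPM, and both groups lay wholly above the unstimulated libraries. The log2 fold changes were 3.69 (SE 0.52, adjusted p = 6.99e-07) for IFNα and 4.52 (SE 0.53, adjusted p = 1.09e-08) for IFNγ. The difference of 0.83 between them (95% interval -0.03 to 1.69, adjusted p = 0.262) was not called. TNF and IFNγ differed in CCL7 by 0.27 (95% interval -0.58 to 1.11, adjusted p = 0.826), where CCL2 had differed by 1.64. Unstimulated replicate 3, with 41 counts, set much of the baseline: without it the CCL7 log2 fold changes were 5.43 for IL-1β, 5.63 for TNF, 4.52 for IFNα and 5.37 for IFNγ.

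CCL7 was the member called with IL-17A. Its libraries measured 71.0, 71.8, 66.5 and 56.9 CPM, a tight group above every unstimulated library. The log2 fold change was 2.45 (SE 0.52, adjusted p = 0.00552), and 3.28 without unstimulated replicate 3. IL-22 libraries measured 26.6, 48.2, 12.8 and 24.3 CPM and TGF-β1 libraries 7.02, 16.0, 36.3 and 33.8 CPM, and both overlapped the unstimulated range. Their log2 fold changes of 1.24 (adjusted p = 0.406) and 0.94 (adjusted p = 0.383) were not called.

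**Figure D2:**
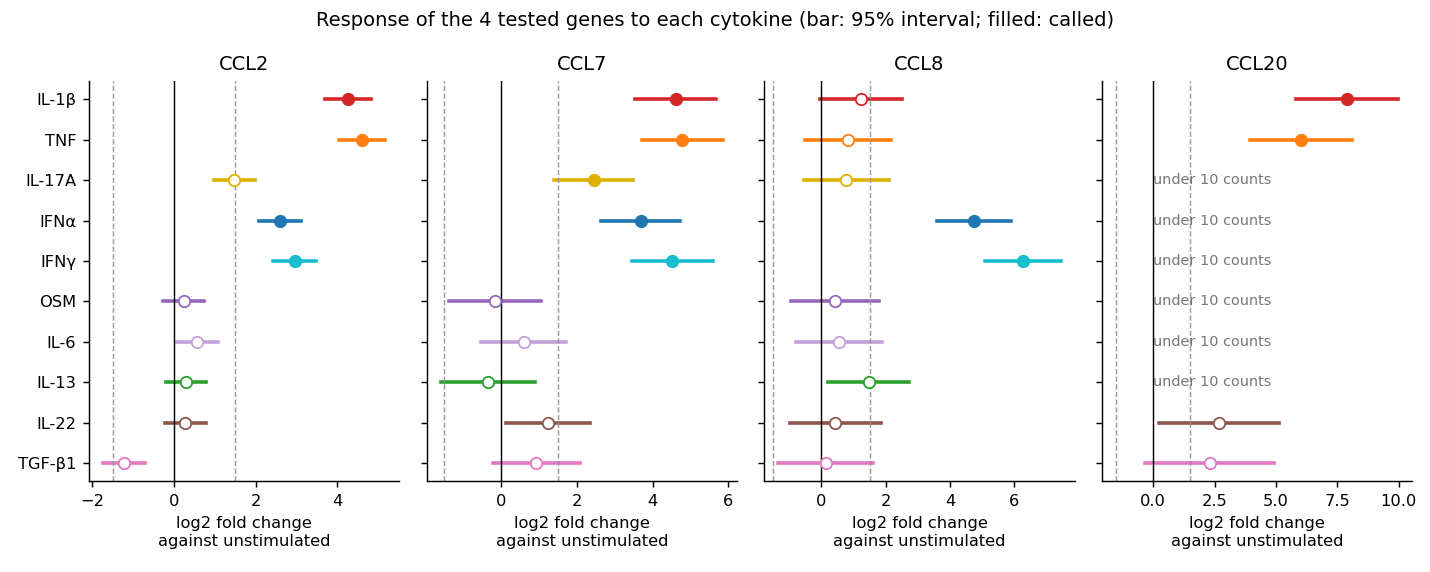
Log2 fold change against unstimulated cells (x axis) of the 4 tested genes for each cytokine (y axis), with 95% intervals. Filled points were called, open points were not, and dashed lines mark 1.5 in either direction; CCL20 is left out where a cytokine had fewer than 10 counts in all. CCL2 and CCL7 moved with IL-1β, TNF and both interferons, while the called cytokines of CCL8 and CCL20 did not overlap.

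CCL8, a ligand of CCR2 among other receptors, responded to the interferons. Unstimulated libraries held 2, 0, 13 and 10 counts (0.979, 0, 9.15 and 6.83 CPM). IFNα gave 74.9, 71.1, 144 and 157 CPM, and IFNγ gave 174, 173, 501 and 425 CPM. The 3 ranges did not meet: every IFNγ library was above every IFNα library, and every IFNα library above every unstimulated one. The log2 fold changes were 4.75 (SE 0.57, adjusted p = 1.66e-08) for IFNα and 6.26 (SE 0.59, adjusted p = 2.59e-11) for IFNγ, and without unstimulated replicate 3 they were 5.45 and 6.98. The 7 leukocyte markers, of which only CD68 was tested, summed to 38.0 to 73.8 CPM with IFNα, 8.31 to 20.6 with IFNγ and 0 to 9.30 in unstimulated cells. CD3E and ITGAM were at 0 and PTPRC at 1.60 CPM or less, and the part of these cells or of CD68 in the interferon results was not tested.

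IFNγ exceeded IFNα in CCL8 by 1.51 on the log2 scale (SE 0.44, 95% interval 0.63 to 2.39, adjusted p = 0.0184). This was the only member called between the interferons (2.74% of all genes were called), and it lay just past the fold threshold. The call ended when IFNα replicate 1 (1.36, adjusted p = 0.0763), IFNα replicate 2 (1.35, adjusted p = 0.0783), IFNγ replicate 3 (1.21, adjusted p = 0.128) or IFNγ replicate 4 (1.34, adjusted p = 0.0813) was left out, the last 2 being the highest libraries of CCL8.

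CCL8 was not called with any other cytokine. IL-1β libraries held 5.55 to 14.9 CPM and TNF libraries 3.53 to 10.5 CPM, and both overlapped the unstimulated range. Their log2 fold changes were 1.23 (95% interval -0.03 to 2.50, adjusted p = 0.313) and 0.83 (95% interval -0.49 to 2.16, adjusted p = 0.498), intervals that leave room for a rise as well as for none. IL-13 libraries measured 7.97, 10.8, 11.5 and 16.0 CPM, with a log2 fold change of 1.47 (95% interval 0.21 to 2.73, adjusted p = 0.215).

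CCL13, another ligand of CCR2, was barely measured. It had 3 counts in unstimulated cells, all in replicate 3, and at most 3 counts in any group other than the interferons. IFNα libraries held 2, 6, 3 and 7 counts, and IFNγ libraries 8, 4, 6 and 1. The ratio to unstimulated cells was 6.10 for IFNα (95% counting interval 1.78 to 32.3) and 7.84 for IFNγ (2.31 to 41.4). By an exact two-sided permutation test of log2 CPM, whose smallest possible p is 0.0286, both gave p = 0.0571 (n = 4 and 4; adjusted p = 0.286 over 10 cytokines), so neither passed.

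CCL5, a T cell and monocyte attractant, was at or near 0 throughout. Its 4 libraries summed to 3 counts or fewer in 10 of 11 groups, and to 0 with IL-17A, IFNγ, OSM and IL-22. TNF had 9 counts, all in replicate 4 (4.82 CPM), and the other 3 TNF libraries had none. The exact two-sided permutation test gave p = 1 for TNF and p = 0.714 for IL-1β and IFNα (n = 4 and 4), and the other cytokines gave p = 1. A level under the limit of 1.39 to 3.85 CPM in a library could have been missed.

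CCL20, the CCR6 ligand, responded to IL-1β and TNF. Unstimulated cells had 4 counts, all in replicate 4 (2.73 CPM). IL-1β gave 108, 101, 246 and 244 CPM, and TNF gave 26.1, 34.5, 54.0 and 75.0 CPM. Every IL-1β library was above every TNF library, and every TNF library above every unstimulated one. The log2 fold changes were 7.91 (SE 1.03, adjusted p = 7.02e-07) for IL-1β and 6.03 (SE 1.03, adjusted p = 6.38e-05) for TNF. Without unstimulated replicate 4 the baseline was 0, and with each such library set at 3 counts the level was at least 90.9-fold higher with IL-1β and at least 24.7-fold higher with TNF.

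IL-1β, at its lower dose, gave more CCL20 than TNF, but the difference was not called. TNF was below IL-1β by a log2 value of -1.87 (SE 0.67, 95% interval -3.22 to -0.52, adjusted p = 0.206), and 0 of 4 members were called between the 2 cytokines (0.368% of all genes; 1 of 4 at an unadjusted p under 0.05; 0 by DESeq2). CCL20 was called, at -1.88 (adjusted p = 0.000452) when no filter on low counts was used and at -1.85 (adjusted p = 0.00443) when the 8 libraries were fitted alone. The doses of the 2 cytokines differ, so potency and kind of signal cannot be told apart.

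Elsewhere CCL20 was in few libraries. IL-22 had 25 counts, all in replicate 4 (16.0 CPM), and TGF-β1 had 7, 8, 0 and 1 counts, and neither was called (adjusted p = 0.424 and 0.351). IL-17A had 2, 0, 0 and 7 counts, IFNγ 0, 1, 0 and 3, and OSM 3 counts in replicate 2. IFNα, IL-6 and IL-13 had 0 counts in all 4 libraries.

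TNF and IFNγ were also compared directly, in the same libraries as above, which gives the size of the difference between them and is no independent evidence of it. Of the 4 members, 3 were called (3.65% of all genes). CCL8 was lower with TNF by a log2 value of -5.42 (SE 0.55, adjusted p = 2.50e-10), a 42.9-fold difference between 7.40 ± 2.96 and 318 ± 170 CPM (SD, n = 4). CCL20 was higher with TNF by 5.78 (SE 1.03, adjusted p = 0.000132), from 0.742 ± 1.01 CPM with IFNγ to 47.4 ± 21.8 CPM with TNF, and without IFNγ replicate 4, which held 3 of the 4 IFNγ counts, by 7.06.

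**Figure D3:**
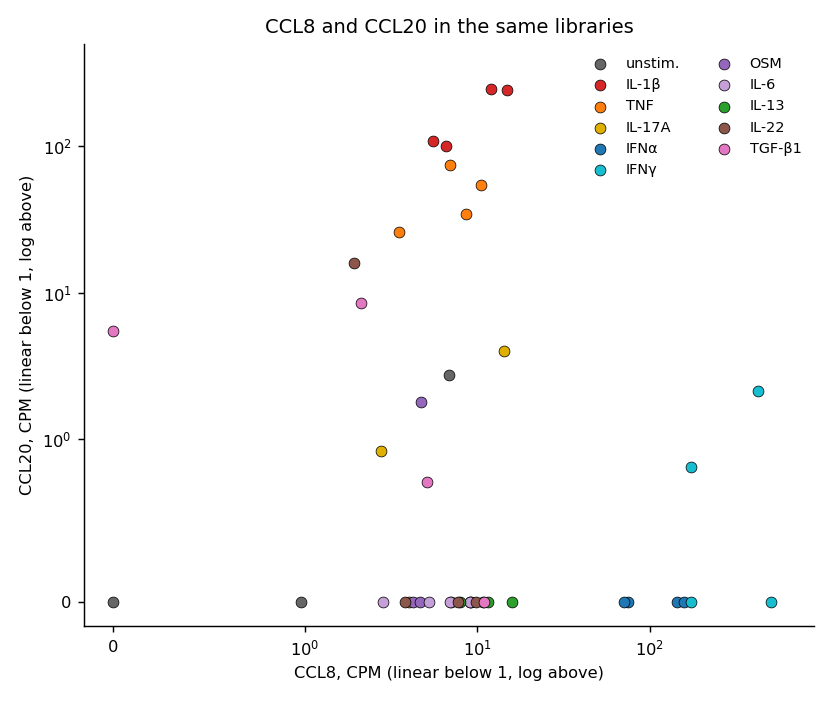
CCL8 (x axis) against CCL20 (y axis) in the 44 libraries, both in CPM (linear below 1, logarithmic above) and coloured by cytokine. The 8 interferon libraries lie at the lower right, between 71.1 and 501 CPM of CCL8, and the 8 IL-1β and TNF libraries at the upper left, between 26.1 and 246 CPM of CCL20, and no library was high in both.

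None of the 4 tested members was called with OSM, IL-6, IL-13, IL-22 or TGF-β1 (1.30%, 0.0105%, 1.47%, 0% and 1.70% of all genes, in that order). At an unadjusted p under 0.05 there were 0, 1, 1, 2 and 1 of 4, and DESeq2 also called 0 with each, although it gave CCL8 and CCL20 no adjusted p with IL-22. CCL2 was 361 ± 35.4 CPM with OSM, 455 ± 167 with IL-6, 374 ± 37.4 with IL-13 and 370 ± 73.6 with IL-22 (SD, n = 4), all overlapping the unstimulated range. The interval for OSM, -0.25 to 0.74 on the log2 scale, stays below 1, whereas that for IL-6, 0.08 to 1.07 (adjusted p = 1), reaches past it. IL-22 called 0 of 9513 genes in all, with 1037 at an unadjusted p under 0.05 and 2 called by DESeq2, and the IL-22 receptor chain IL22RA1 was at 0 counts in its 4 libraries.

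In order of mean CPM, CCL2 ran TNF, IL-1β, IFNγ, IFNα, IL-17A, IL-6, IL-13, IL-22, OSM, unstimulated and TGF-β1. Of its 10 neighbouring pairs in that order, 3 did not overlap: IL-1β over IFNγ, IFNα over IL-17A, and IL-17A over IL-6. CCL7 kept the first 5 places, but there only IL-17A and IL-22 were separate among neighbours. For CCL8 the separate pairs were IFNγ over IFNα and IFNα over IL-13, and for CCL20 IL-1β over TNF and TNF over IL-22. CCL13 and CCL5 had no separate neighbours.

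Levels of different genes were compared per kilobase of canonical transcript. In unstimulated cells CCL2 stood at 412 ± 139 CPM per kb, CCL7 at 15.3 ± 14.6 and CCL8 at 4.92 ± 5.16 (SD, n = 4). CCL2 held 95.5 ± 3.89% of the 6 genes' sum. The sum itself was 434 CPM per kb in unstimulated cells, 10472 with TNF, 8516 with IL-1β, 3925 with IFNγ, 2818 with IFNα, 1238 with IL-17A and 215 with TGF-β1.

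The composition is described without a test. The CCL2 share in single unstimulated libraries ran from 90.0 to 98.9%. Only IFNγ (77.9 to 87.5%) and TGF-β1 (77.2 to 85.9%) lay wholly below that range. CCL2 held 95.2 ± 1.33% with TNF and 93.1 ± 2.13% with IL-1β, against 89.0 ± 3.32% with IFNα and 82.5 ± 5.26% with IFNγ. With IFNγ, CCL8 held 8.94% and CCL7 8.45%, and with IL-1β, CCL20 held 2.46%. In TGF-β1, at the lowest sum of all groups, the CCL2 share was 81.5 ± 4.93%, CCL7 held 12.7 ± 4.02% and CCL20 3.30 ± 3.68%, the latter from 16 counts in all. The ratio of CCL2 to CCL7 per kb was 24.4 with TNF, 22.4 with IL-1β, 16.4 with IFNα, 14.1 with IL-17A, 10.4 with IFNγ and 7.02 with TGF-β1, and 47.0 in unstimulated cells, where single libraries ranged from 12.5 to 92.9. These are means of the ratios of single libraries, and the ratio of the unstimulated group means was 26.9, close to the TNF and IL-1β values, so no fall with TNF or IL-1β can be read from them.

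**Figure D4:**
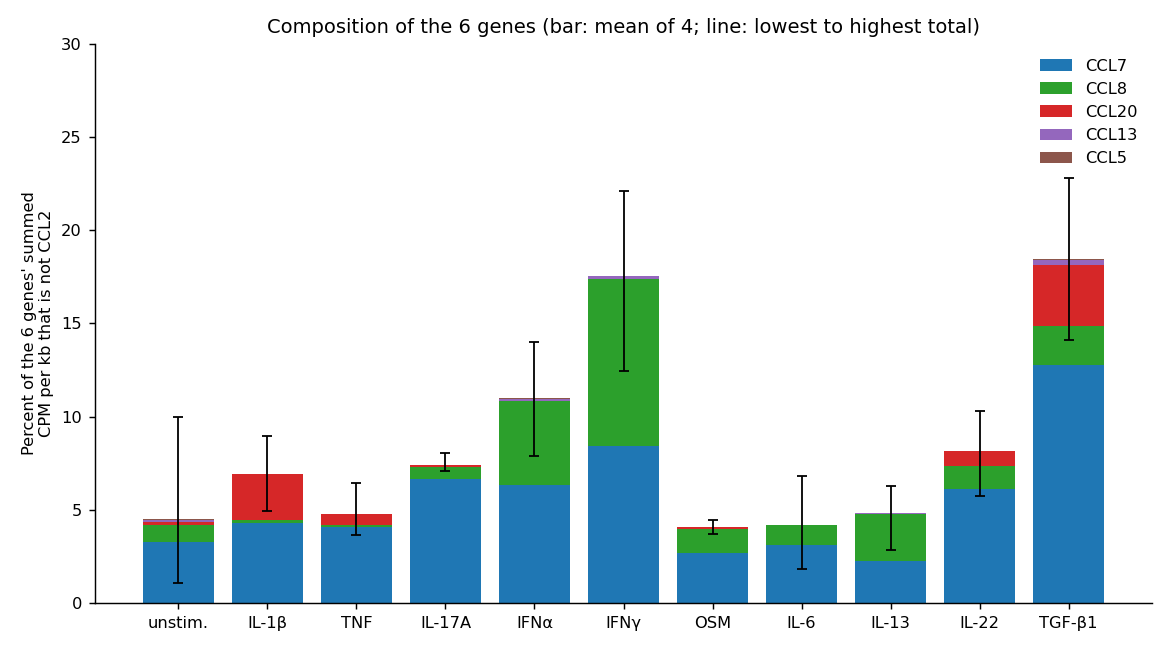
Share of the 6 genes' summed CPM per kb that is not CCL2 (y axis, percent) in each group (x axis). Coloured segments are the mean shares of the other 5 genes over 4 libraries, and lines run from the lowest to the highest library; IFNγ and TGF-β1 have the smallest CCL2 shares (82.5% and 81.5%), the former through CCL7 and CCL8 alike.

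Replicates 3 and 4 tended to be the high ones in CCL2, CCL7 and CCL8. In CCL8 both lay above both of replicates 1 and 2 in 7 of 11 groups and below them in 0, in CCL7 in 7 and 2, and in CCL2 in 6 and 2. Over all genes tested the mean was 2.12 groups above and 2.18 below. In CCL20, with counts in few groups, both lay above in 2 groups (IL-1β and TNF) and below in 1 (TGF-β1), neither more than those means. What the replicate numbers shared is not stated in the labels, and its part in these levels was not tested.

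Within the cluster, neighbours did not move as a block. CCL11, which attracts eosinophils and lies between CCL7 and CCL8, was highest with IL-13, at 1543 ± 199 CPM per kb against 73.2 ± 12.4 in unstimulated cells (SD, n = 4), where CCL2, CCL7 and CCL8 were not called. It was called with TNF (2.32 on the log2 scale, adjusted p = 2.93e-07), IFNα (3.26, adjusted p = 5.02e-11) and IFNγ (1.77, adjusted p = 3.95e-05), but not with IL-1β (0.63, adjusted p = 0.269), which had raised CCL2 and CCL7. Between TNF and IL-1β, CCL11 was higher with TNF by 1.69 (adjusted p = 0.000619). CCL1, at the far end, reached 2 counts at most in any library.

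**Figure D5:**
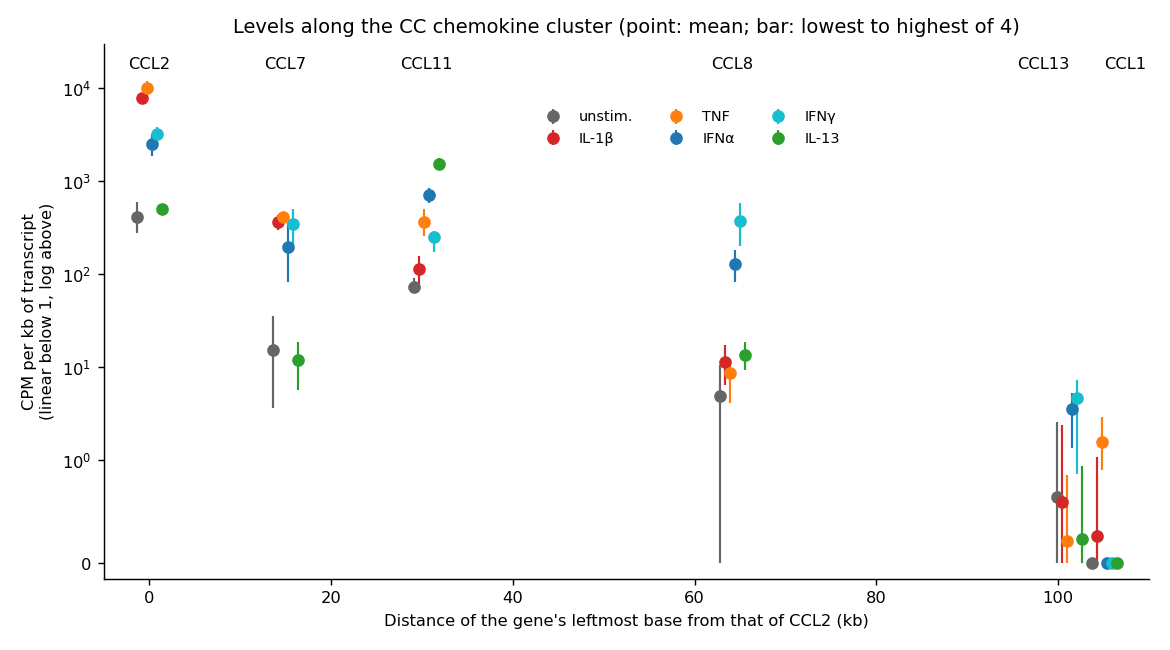
Mean CPM per kb of transcript (y axis, linear below 1 and logarithmic above) of the 6 genes of the chromosome 17 cluster against their distance from CCL2 in kb (x axis), in unstimulated cells and with 5 cytokines, with bars from the lowest to the highest of 4 libraries. TNF and IL-1β top CCL2, IL-13 tops CCL11 at 1543 CPM per kb, and IFNγ tops CCL8 at 369 CPM per kb.

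For each tested member, the genes of highest correlation over the 11 group means were picked among 1096 genes called with at least 1 cytokine. Likeness is built into that choice, so it is no evidence for the patterns above. These correlations share libraries and are given as a description. CCL2 was closest to PTGFR, the prostaglandin F receptor (r = 0.958), SOD2, the mitochondrial superoxide dismutase (r = 0.922), and NFKBIA, the NF-κB inhibitor (r = 0.916). CCL7 was closest to TCIM (r = 0.972), GCH1 (r = 0.927) and the alarmin IL33 (r = 0.919), which measured 138 CPM in unstimulated cells, 1829 with IL-1β, 1940 with TNF, 367 with IFNα and 790 with IFNγ. CCL8 was closest to IFI30, a lysosomal thiol reductase (r = 0.982), ACSL5 (r = 0.981) and the aminopeptidase LAP3 (r = 0.977). CCL20 was closest to CSF2, the growth factor GM-CSF (r = 0.975), the EGF-family ligand EREG (r = 0.962) and SERPINB2, a plasminogen activator inhibitor (r = 0.952). In unstimulated cells IFI30, EREG and SERPINB2 summed to 0 counts, ACSL5 to 1 and GCH1 to 2. Their r values therefore rest largely on the groups in which they had counts. Among the members themselves r was 0.914 for CCL2 and CCL7, 0.463 for CCL2 and CCL8, 0.687 for CCL2 and CCL20, and -0.160 for CCL8 and CCL20.

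Families of regulators known to act on chemokine genes were read in the same libraries, and their part in the levels of the members was not tested. Of 9 tested NF-κB subunits and feedback genes, 5 were called with IL-1β, 4 with TNF and 1 with IL-17A, all higher, and the median log2 fold change of the 9 was 1.73 with IL-1β and 1.81 with TNF beside -0.01 and -0.02 over all genes. BIRC3, an inhibitor of apoptosis, rose from 7.13 to 295 CPM with IL-1β and 856 CPM with TNF, and TNFAIP3, the deubiquitinase A20, from 1.18 to 28.0 and 52.1 CPM. Their baselines rested on single libraries: BIRC3 was 5.39 and 6.92 on the log2 scale for IL-1β and TNF but 7.42 and 8.96 without unstimulated replicate 4, and TNFAIP3 was 4.52 and 5.42 but 6.62 and 7.54 without unstimulated replicate 3. NFKBIZ, a co-activator, was called with IL-1β (3.12) and IL-17A (2.81) and was lower with TNF than with IL-1β (-1.96, adjusted p = 0.000609). NFKB1 was called at 1.73 with IL-1β and 1.81 with TNF. Both calls ended without unstimulated replicate 3 (1.53, adjusted p = 0.0927, and 1.62, adjusted p = 0.0523) or unstimulated replicate 4 (1.41, adjusted p = 0.118, and 1.48, adjusted p = 0.0687). The IL-1β call also ended without IL-1β replicate 2 (1.67, adjusted p = 0.0561) or 4 (1.71, adjusted p = 0.0544).

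Of 7 tested interferon signalling factors, 4 were called with IFNα and 4 with IFNγ, all higher, with medians of 1.53 and 1.93 on the log2 scale beside -0.01 over all genes with each. IRF1 measured 121 ± 7.01 CPM with IFNγ and 15.1 ± 9.38 with IFNα (SD, n = 4), a difference of 2.99 on the log2 scale (SE 0.47, adjusted p = 1.23e-05). The IRF1 call with IFNα (1.53, adjusted p = 0.0458) ended without IFNα replicate 2 (1.06, adjusted p = 0.267) or 4 (1.48, adjusted p = 0.089) and without unstimulated replicate 2, 3 or 4 (adjusted p = 0.141, 0.148 and 0.0577). The IRF9 call with IFNγ (2.18) ended without IFNγ replicate 4 (1.13, adjusted p = 0.314) and likewise without replicate 4 of the unstimulated cells (1.97, adjusted p = 0.0613), and the STAT2 call (1.93) without IFNγ replicate 2 (1.41).

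Of 22 genes for receptor chains of the 10 cytokines, 16 were tested. IL13RA2, a decoy receptor for IL-13, was called with IL-1β (3.54), TNF (3.57) and IL-17A (1.59), and IFNAR2 with TNF (2.28), all higher. IL13RA1 (1.68) and IL1R1 (1.66) were called higher with OSM and LIFR lower with IFNα (-2.07). The IL13RA2 call with IL-17A ended without unstimulated replicate 1 or 2 or any 1 IL-17A library (1.42 to 1.65, adjusted p = 0.0669 to 0.217). The IL13RA1 call ended without unstimulated replicate 4 (1.48), that of IL1R1 without OSM replicate 4 (1.47), and that of LIFR without IFNα replicate 1 (-1.98, adjusted p = 0.0528) or 4 (-1.82, adjusted p = 0.0723).

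The receptors of the chemokines themselves were almost absent from the fibroblasts. CCR1, CCR2 and CCR6 had 0 counts in all 44 libraries, and of 14 CC chemokine receptor genes listed only ACKR4 was tested. CCRL2, below the filter on low counts, had 2 to 15 counts in the IFNα libraries (4.56 ± 3.43 CPM, SD, n = 4) and 0 in unstimulated cells. ACKR4, an atypical receptor that scavenges homeostatic CC chemokines, was at 0 in unstimulated cells and at 22.5 ± 10.7 CPM with IFNα and 25.1 ± 13.5 with IFNγ (SD, n = 4; adjusted p = 0.000284 and 0.000323), which is at least 11.5-fold and at least 12.8-fold higher with each unstimulated library set at 3 counts. DESeq2 gave ACKR4 no adjusted p with IFNγ. With TNF it had 0 to 15 counts, and its call there (adjusted p = 0.0325) was lost without TNF replicate 3 (adjusted p = 0.0535), TNF replicate 4 (adjusted p = 0.188) or any single unstimulated library, and with DESeq2 (0.25), the replicate block (0.0526) and only the libraries compared (0.114).

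Of 20 other CC chemokines listed, CCL11 and CCL26 had enough counts to be tested. CCL26, an eosinophil attractant, rose from 1.21 CPM in unstimulated cells to 908 ± 418 CPM with IL-13 and 13.1 ± 9.46 CPM with IFNα (SD, n = 4), and CCL11 also rose with IL-6 (1.92, adjusted p = 0.00123; 0.0786 with the 8 libraries fitted alone), the one gene called there. Without unstimulated replicate 2 the log2 fold change of CCL26 was 10.85 rather than 9.56 with IL-13 and 4.69 rather than 3.39 with IFNα. Among 4 tested genes for other monocyte attractants and growth factors, CSF2 rose from 0.695 to 56.6 CPM with IL-1β and 23.5 CPM with TNF, CSF1 from 4.62 to 23.2 CPM with IFNα and 20.7 CPM with IFNγ, and CXCL12 fell by 2.55 on the log2 scale with IL-1β, by 3.59 with TNF and by 1.86 with TGF-β1 and rose by 2.99 with OSM. Without unstimulated replicate 4 the log2 fold change of CSF2 was 7.58 rather than 6.26 with IL-1β and 6.32 with TNF, and CXCL12 with TNF was -5.20 without TNF replicate 2. CXCL14 fell by 1.54 with TNF, a call that ended without unstimulated replicate 3 or 4 or TNF replicate 3 (-1.33, -1.39 and -1.38). Of 5 tested enzymes known to trim CC chemokines, MMP1 and MMP3 were called higher with IL-1β and TNF (2 of 5 in each) and lower with IL-13. DPP4 fell by 1.97 with TGF-β1 (adjusted p = 4.33e-05), where MMP3 rose by 2.15 (adjusted p = 1.26e-05).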

How the data were processed

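RNA of Ccd-18Co cells was sequenced in 44 libraries, 4 in each of 11 groups that were read from the sample titles. The authors used kallisto (version 0.48.0) and deposited estimated counts per gene symbol, not scaled for depth. Their processing notes also name FastQC 0.11.9, MultiQC 1.14 and hg38, and the transcript release and strand setting are not given in the sources used here. Reads of an antisense partner could therefore not be told apart by strand. The 31-base words were searched on both strands, and those of CCL2, CCL7, CCL8, CCL13 and CCL20 occurred in no annotated transcript of another gene.

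Estimated counts were rounded (5.77% were not whole) and fitted in R 4.3.3 with edgeR 4.0.16 (filterByExpr, trimmed mean of M values, glmQLFit and glmQLFTest, 1 coefficient per group over all 44 libraries). Benjamini-Hochberg adjustment ran over all 9513 genes of a comparison. Standard errors are the log2 fold change divided by the root of its F statistic. The 10 cytokines were each set against unstimulated cells, and 3 pairs of cytokines against each other. CPM used the normalized library size and log2 CPM a prior count of 2. Members below the filter were tested by exact permutation (70 divisions of 8 libraries).

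The 6 members, the 7 context lists and the tests were chosen with earlier results of these data known. From the lists, genes called in at least 1 comparison were named, at most the 4 of largest change per list and comparison, and for each tested member the 3 genes of highest correlation over group means. Of 66 replicate pairs 0 were identical, and their lowest chi-square per degree of freedom was 3.26. The code was tested on simulated data. Alternatives were DESeq2 1.42.0 (Wald test, or its size factors), fits of only the libraries compared, other filters on low counts (none, or 10 counts in 4 or more libraries), the replicate number as a block, a log2 threshold of 1 or none, CPM of total counts, the longest transcript in place of the canonical one, and each library left out in turn. Some genes of the context lists are not reported here.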

Additional observations from a re-analysis of the deposited data

Results flagged for a closer look

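In 13 of the 55 sets of 4 libraries in which a member varied, 1 library lay far from the other 3 (by Dixon's ratio of the gap to the nearest library over the whole range). Chance alone puts about 1 in 20 such sets (5%) past that limit. In 12 of the 13 the other 3 libraries had 0 counts, so a single library with a few counts meets the limit by itself.

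CCL8 was 9.07 CPM in OSM replicate 4 against 4.26 to 4.74 CPM in the others. CCL13 was 2.11 CPM in unstimulated replicate 3, 1.95 in IL-1β replicate 4, 0.706 in TNF replicate 1 and 0.772 in IL-13 replicate 2, which are 3, 3, 1 and 1 counts. CCL5 was 0.704 CPM in unstimulated replicate 3, 0.654 in IL-6 replicate 2, 0.888 in IL-13 replicate 4 and 0.734 in TGF-β1 replicate 4, each from 1 count, and 4.82 CPM in TNF replicate 4 from 9 counts. CCL20 was 2.73 CPM in unstimulated replicate 4 and 1.78 CPM in OSM replicate 2, from 4 and 3 counts. It was 16.0 CPM in IL-22 replicate 4, from 25 counts, the one value well above the detection limit in a group whose other 3 libraries held none.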

How the results depend on the processing

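The counts of called members with IL-1β, TNF, IFNα and IFNγ, and between TNF and IFNγ, stayed at 3 of 4 under all alternatives and with each library left out, and those with OSM, IL-6, IL-13 and IL-22 stayed at 0. With IL-17A the count was 2 in place of 1 with the replicate number as a block, with a log2 threshold of 1 and with none, and 1 to 2 with single libraries left out. With TGF-β1 it was 1 in place of 0 with a threshold of 1 and with none, and 0 to 1 with single libraries left out. Between TNF and IL-1β it was 1 in place of 0 without a filter on low counts and with only the libraries compared. Between IFNγ and IFNα it was 0 in place of 1 with the block, where CCL8 had a log2 difference of 1.45 (adjusted p = 0.0022), under the fold threshold, and 0 to 1 with single libraries left out. Same-numbered libraries of different groups correlated at 0.0237 on average (-0.187 to 0.281) those of different numbers at -0.0077, and 20 of 220 same-number pairs exceeded 0.1, so the numbers were not taken to pair the libraries. Still, 22 of 44 libraries were closest to their own number, a hint from the data that they may share something. With the block CCL2 with IL-17A was 1.52 (adjusted p = 2.83e-05). For CCL2 with TGF-β1 the highest adjusted p among the alternatives was 0.0677, which missed the p threshold. The ratio of CCL2 to CCL7 per kb of group means in unstimulated cells was 26.9 with canonical and 10.4 with longest transcripts. With CPM of total counts, 50 rather than 52 of the neighbouring groups overlapped. Genes called with IL-17A numbered 86 without a filter in place of 43. Depth limits CCL13 and CCL5 most.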
